A study of Homo sapiens with 9 samples.

Results

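The genes described here carry a symbol of ZNF followed by a number, the name given to a large group of human zinc finger genes, and were well detected in the libraries. They were chosen by their measured counts, taking each gene with an estimated count of at least 10 in at least 7 of 9 libraries. The rule found 255 of the 476 ZNF rows, among 34922 gene rows. The libraries came from TC71 cells, a human Ewing sarcoma line, of which 100 had been placed in Matrigel under the flank skin of NSG mice, an immunodeficient strain. When tumours measured 1.5 cm, the human cells were sorted by flow cytometry. The groups were bone marrow metastases (4 libraries), lung metastases (4 libraries) and the primary tumour (1 library), all untreated as far as the labels say. All groups therefore share 1 cell line, 1 host strain and 1 route of growth. Which libraries share a mouse cannot be read from the labels, so p-values cover only the spread between these libraries, which may be technical.

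C2H2 zinc finger proteins fold short loops around a zinc ion, and rows of such fingers can bind DNA. Many carry a KRAB box, which recruits the co-repressor TRIM28 (KAP1), and TRIM28 in turn brings the histone methyltransferase SETDB1 and HP1 proteins to chromatin. KRAB zinc finger genes lie in clusters, many of them on chromosome 19, and a number of them silence retroelements. Other ZNF proteins have no KRAB box and activate promoters, bind RNA or take part in ribosome assembly. Ewing sarcoma is driven by a fusion of EWSR1 with an ETS factor, most often FLI1, and ETS factors bind DNA with a GGAA core.

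Library totals lay between 14160000 and 17910000 estimated counts for bone marrow, between 11550000 and 13220000 for lung and at 12350000 for the primary library. In the deposited read summary, human reads made up 77.59 to 79.1% in bone marrow, 72.67 to 77.34% in lung and 78.09% in the primary library, and mouse reads 7 to 8.09% in all. Mitochondrial rRNA took 0.0956 to 0.218% of reads in bone marrow libraries and 0.359 to 0.491% in lung libraries. These 3 measures, library total, human share and mitochondrial rRNA, separated the sites without overlap, and their part in any site difference was not tested. All 7 markers of the Ewing line were above 0 in all 9 libraries, summing to 1527 to 1834 CPM for bone marrow, 1747 to 2134 in lung and 2194 in the primary library (CPM, the count scaled to library size with TMM factors). Of 4 red cell markers, ALAS2 was at 0 in all 9 libraries, and the list summed to 15.2 to 98.6 CPM for bone marrow, 0 to 158 in lung and 5.75 in the primary library. The 5 leukocyte markers summed to at most 4.88 CPM for bone marrow and 14.5 in lung, and the 4 lung epithelium markers, with SCGB1A1 at 0 in all 9, to at most 2.44 and 4.47. The 3 endothelial markers summed to 23.4 to 27.2 CPM for bone marrow and 25.2 to 29.9 in lung. In sorted bulk cells, fewer cells with a transcript and less of it per cell cannot be told apart.

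Of the 255 genes, 171 had at least 10 counts in all 9 libraries, 56 in 8 and 28 in 7. All 255 also passed the filter on low counts that was applied before testing. The rule's margin was thin at its edge. The seventh-highest count was 10.01 for ZNF609, 10.03 for ZNF532 and 10.1 for ZNF419, which are inside, and 9.87 for ZNF701 and for ZNF669 and 9.80 for ZNF181, which are outside. Genes under 10 counts numbered 2, 17, 18 and 6 in the bone marrow libraries, 13, 3, 28 and 16 in the lung libraries and 9 in the primary library. Lung replicate 3 had the most, and also the most genes at 0, with 6.

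GENCODE 29 (GRCh38) placed 254 of the genes, with 117 on chromosome 19, 16 on chromosome 7 and 15 on chromosome 16. In the translated coding sequences, 139 genes held a KRAB-like box and at least 1 finger, 110 held fingers without the box, and 5 held no finger of the searched pattern (ZNF330, ZNF487, ZNF703, ZNF720 and ZNF738). The median number of fingers was 10 and the highest was 33, in ZNF462. The box pattern can miss variant boxes. Fingers repeat between paralogs, and the median gene shared 6.01% of its 31-base words with transcripts of another gene. That share was above 10% for 85 genes and above 50% for 3, with 79.2% for ZNF320 and 78.6% for ZNF709, so the counts of such genes are uncertain. Exons overlapped those of another gene on the same strand for 55 genes and on the opposite strand for 57. No source used here gives the strand setting of the counting, so reads of overlapping antisense genes cannot be told apart.

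The genes took a small and similar part of every library. Their share of all counts was 0.463, 0.490, 0.503 and 0.550% in bone marrow, 0.571, 0.610, 0.484 and 0.539% in lung and 0.588% in the primary library. Bone marrow averaged 0.502 ± 0.0365% and lung 0.551 ± 0.0532% (SD, n = 4 each), and the sites overlapped. The median gene had a mean of 9.76 CPM over the 9 libraries, beside 6.02 CPM for all genes tested, a difference that the rule on counts itself favours. Means ran from 0.912 to 374 CPM, 132 genes were under 10 CPM and 7 reached 100 CPM. The 10 highest genes held 29.3% of the family's summed level.

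Levels between genes were compared per kilobase of the principal transcript. ZNF593, a factor of ribosome assembly, was highest at 174 CPM per kb, followed by ZNF706, a small protein with 1 finger, at 107 CPM per kb. ZNF22 reached 96.7, ZNF622, a ribosome biogenesis factor, 69.7, and ZNF207 (BuGZ), which binds microtubules and the spindle checkpoint protein BUB3, 58.6 CPM per kb. ZNF562, ZNF410, ZNF688, ZNF791, ZNF24, ZNF641 and ZNF330 followed, from 41.1 down to 19.2 CPM per kb. ZNF410 is known as an activator of CHD4, and ZNF24 carries a SCAN domain. Of these 12 genes, 3 had a KRAB-like box (ZNF562, ZNF688 and ZNF791). Words of 31 bases were shared with other genes for 40.1% of ZNF410, 15.0% of ZNF562 and 12.4% of ZNF791. Exons of ZNF410 also overlap those of PTGR2 on the same strand. The order depended on the length used. With the median length over all annotated transcripts, which was tried first and is pulled down by short partial models, 8 of the 12 stayed, ZNF706 led at 619 CPM per kb, and ZNF451, ZNF146, ZNF644 and ZNF431 took the places of ZNF622, ZNF24, ZNF641 and ZNF330. The principal transcript was chosen after that first order had been seen.

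ZNF706 had the highest level before scaling by length, at 304, 357, 291 and 458 CPM for bone marrow, 373, 507, 503 and 311 CPM for lung and 258 CPM for the primary tumour. The sites overlapped, and the primary library was below all 8 metastasis libraries. ZNF593 lay at 73.2 to 171 CPM for bone marrow, 100 to 151 CPM for lung and 133 CPM for the primary tumour. ZNF207 lay at 87.4 to 143 CPM, 108 to 193 CPM and 160 CPM in the same order. For both genes the sites overlapped.

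Bone marrow was compared with lung to ask how cells of 1 line differ between metastatic sites. The choice of ZNF146 and ZNF783 used their values in this contrast, so those of both are a description only. ZNF146 (OZF), a protein made almost wholly of fingers, lies at chr19:36214602-36238774 on the plus strand. It stood at 49.5, 102, 131 and 101 CPM for bone marrow, 8.65, 21.9, 14.4 and 12.1 CPM for lung and 119 CPM for the primary tumour. Every bone marrow library was above every lung library, and the primary library lay within the bone marrow range. The means were 95.8 ± 33.8 and 14.3 ± 5.63 CPM (SD, n = 4 each), and the log2 fold change was 2.74 ± 0.42 (SE). ZNF146 shared 0.240% of its 31-base words with other genes, and its exons overlap those of ZNF565 on the opposite strand.

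ZNF783 lies at chr7:149262171-149297302 on the plus strand and fell below the rule's threshold. Its estimated counts were 164, 352, 95.8 and 337 in bone marrow, 1.06, 1.03, 3.31 and 7.27 in lung and 326 in the primary library. On the CPM scale, bone marrow averaged 15.6 ± 7.46 and lung 0.228 ± 0.204 (SD, n = 4 each), and the primary library was at 25.0. The lung libraries were near 0 and the primary library was above all 4 bone marrow libraries. No fold is given because 3 of the 4 lung counts were near or under 3. ZNF783 shared 31.7% of its 31-base words with other genes.

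The genes beside both were also measured, in a window of 500 kb chosen after the values had been seen. Only genes that met the count rule were taken. A neighbour nearly absent at a whole site, as ZNF783 was in lung, could not appear. Around ZNF146, 18 other genes met the same count rule, 8 of them higher in bone marrow. Their log2 fold changes had a median of -0.07 and ran from -1.79 to 1.82. Of the 18, 4 did not overlap between the sites. Of these, 2 were higher in bone marrow (11.1%, beside 2.81% of all genes) and 2 higher in lung (11.1%, beside 3.06%). These shares rest on few genes, and the difference was not tested. POLR2I, a subunit of RNA polymerase II, ran from 10.5 to 24.0 CPM for bone marrow and from 0 to 9.50 CPM for lung, and ZFP14, a zinc finger gene, from 11.96 to 22.6 and from 7.81 to 11.8 CPM. TBCB, a tubulin folding cofactor, averaged 128 ± 28.0 CPM for bone marrow and 203 ± 15.2 CPM for lung. CAPNS1, the small calpain subunit, averaged 19.1 ± 0.903 and 39.3 ± 9.24 CPM (SD, n = 4 each). The edgeR adjusted p values of POLR2I, ZFP14, TBCB and CAPNS1 were 0.578, 0.528, 0.431 and 0.419. Around ZNF783, 3 of 6 other genes were higher in bone marrow, and their log2 fold changes ran from -1.28 to 0.78. EZH2, the methyltransferase of Polycomb complex PRC2, averaged 50.5 ± 16.2 CPM for bone marrow and 37.6 ± 13.1 CPM for lung (edgeR adjusted p = 0.743).

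**Figure D1:**
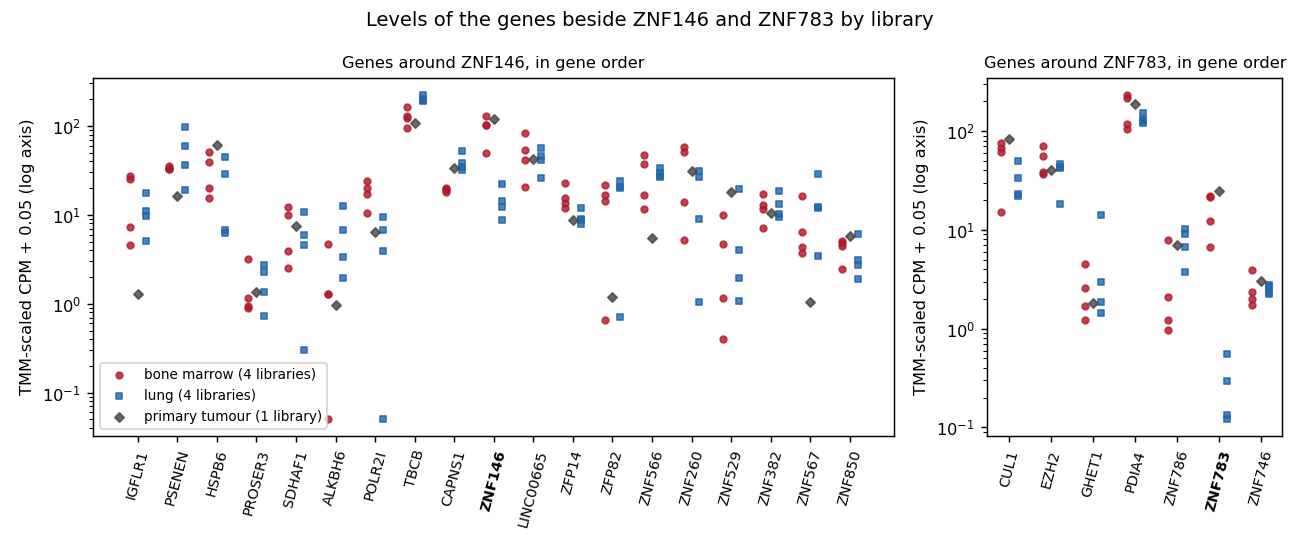
TMM-scaled CPM plus 0.05 on a log axis, with 1 point per library (4 bone marrow, 4 lung, 1 primary). Shown in gene order are ZNF146, ZNF783 and the genes within 500 kb of each that met the count rule. ZNF146 and ZNF783 separate the sites, while most of their 18 and 6 neighbours have overlapping points. A neighbour nearly absent at a whole site, as ZNF783 was in lung, could not meet that rule.

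No well-detected ZNF gene passed the edgeR quasi-likelihood test between the sites at a Benjamini-Hochberg adjusted p of 0.05, 0 of 255, where 0.00586% of the 17073 genes tested were called. At an unadjusted p below 0.05 there were 15, or 5.88%, beside 10.2% of all genes. Of these, 9 were higher in bone marrow (3.53%, beside 6.33% of all genes) and 6 higher in lung (2.35%, beside 3.88%). DESeq2 called 5 of 253 (1.98%, beside 3.37% of all genes), 3 of them higher in bone marrow (ZNF146, ZNF709 and ZNF773; 2.16% of all genes) and 2 higher in lung (ZNF140 and ZNF808; 1.21% of all genes). The call of ZNF146 is a description, as above. The tool limma voom called 0 of 255, beside 0.0351% of all genes, with 29 at an unadjusted p below 0.05 (11.4%, beside 11.2% of all genes). The median log2 fold change over the family was -0.11, beside 0.00 for all genes, and ran from -0.22 (without bone marrow replicate 1) to -0.05 (without bone marrow replicate 3) with single libraries left out. It was above 0 for 107 genes (42%, beside 49.9% of all genes) and below 0 for 148, and 74.9% lay within 1 log2 unit of 0, beside 65.7% of all genes. The rule favours such values, since a gene near 0 at a whole site could not meet it.

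**Figure D2:**
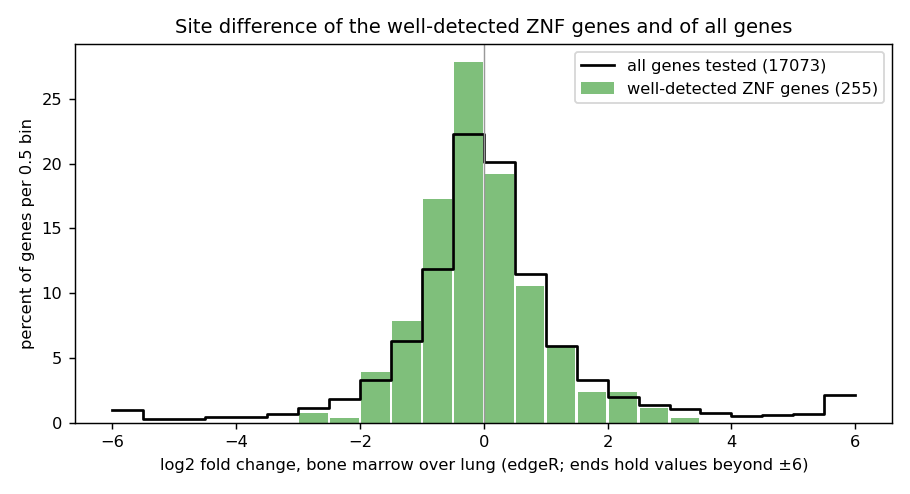
Percent of genes per bin of 0.5 log2 units of the edgeR fold change, bone marrow over lung, for the 255 well-detected ZNF genes (bars) and the 17073 genes tested (line), with end bins holding values beyond the axis. The ZNF genes centre near -0.11, and 74.9% of them lie within 1 log2 unit of 0.

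By protein class, the median log2 fold change was -0.23 over the 139 genes with a KRAB-like box, of which 53 were higher in bone marrow. It was -0.05 over the 110 genes with fingers but no match to the box pattern, of which 50 were. The second class holds SCAN genes such as ZNF24, and KRAB genes whose box the pattern missed, such as ZNF248. It was -0.16 over the 117 genes on chromosome 19 and -0.05 over the 137 on other chromosomes. By level, the lowest 85 genes had a median of -0.26, the middle 85 of -0.08 and the highest 85 of -0.02. The class and level values are descriptions, and the differences between them were not tested.

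For 14 genes, all libraries of 1 site lay above all of the other (5.49%, beside 5.87% of all genes). Of these 7 were higher in bone marrow (2.75%, beside 2.81%) and 7 higher in lung (2.75%, beside 3.06%), so the shares lay near those of all genes. Beside ZNF146, the genes higher in bone marrow were ZNF709, ZNF773, ZNF532, ZNF28, ZNF287 and ZNF322.

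ZNF709, a KRAB gene with 19 fingers at chr19:12461184-12513854 on the minus strand, stood at 9.92, 30.6, 11.7 and 20.8 CPM for bone marrow, 2.21, 3.17, 0.828 and 2.69 CPM for lung and 6.44 CPM for the primary tumour. The primary library lay between the sites. Its log2 fold change was 3.03 ± 0.65 (SE) (edgeR adjusted p = 0.303). ZNF709 shared 78.6% of its 31-base words with other genes, and its exons overlap those of 2 genes on the same strand. ZNF773, a KRAB gene with 9 fingers at chr19:57499915-57518404 on the plus strand, stood at 11.2, 9.58, 15.7 and 5.80 CPM for bone marrow, 1.27, 3.87, 0.497 and 0.872 CPM for lung and 4.30 CPM for the primary tumour. The closest libraries of the sites were at 5.80 and 3.87 CPM. The log2 fold change was 2.69 ± 0.77 (SE) (edgeR adjusted p = 0.381). ZNF773 shared 14.2% of its 31-base words with other genes, and its exons overlap those of another gene on the same strand.

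ZNF28 lay at 19.5 to 27.4 CPM for bone marrow, 1.66 to 17.3 CPM for lung and 3.38 CPM for the primary tumour, which was inside the lung range. ZNF287 lay at 17.4 to 34.0 CPM for bone marrow and 10.6 to 15.8 CPM for lung. ZNF322 lay at 30.2 to 43.3 CPM and 8.52 to 25.9 CPM. The log2 fold changes of these 3 genes were 1.59, 0.98 and 0.94, with edgeR adjusted p of 0.486 for each. ZNF28, ZNF287 and ZNF322 shared 22.3, 1.07 and 28.8% of their 31-base words with other genes. Exons of ZNF28 overlap those of ZNF468 on the same strand. ZNF532, a gene at the edge of the rule, was at 7.25, 8.91, 4.93 and 5.87 CPM for bone marrow and at 4.07, 0.703, 0 and 0.436 CPM for lung. Lung replicate 1 lay close to the lowest bone marrow library. ZNF532 shared 15.4% of its 31-base words with other genes. With single libraries left out, the log2 fold changes ran from 1.96 to 4.12 for ZNF532, from 2.40 to 3.57 for ZNF773 and from 1.27 to 2.34 for ZNF28.

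The genes higher in lung without overlap were ZNF808, ZNF71, ZNF140, ZNF281, ZNF793, ZNF22 and ZNF737. ZNF140, a KRAB gene with 10 fingers at chr12:133079838-133107544 on the plus strand, stood at 22.7, 15.9, 28.0 and 25.0 CPM for bone marrow, 67.0, 56.4, 40.1 and 52.2 CPM for lung and 12.4 CPM for the primary tumour. The primary library was below all 8 metastasis libraries. The log2 fold change was -1.23 ± 0.34 (SE) (edgeR adjusted p = 0.364). Its exons overlap those of ZNF891 on the opposite strand.

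ZNF281, a factor without a KRAB box that is known to bind GC-rich promoters, lies at chr1:200404940-200410056 on the minus strand. It stood at 39.5, 39.1, 83.3 and 73.4 CPM for bone marrow, 125, 126, 146 and 89.7 CPM for lung and 75.3 CPM for the primary tumour. The bone marrow libraries fell into a lower and a higher pair, and the primary library lay inside their range. The log2 fold change was -1.05 ± 0.33 (SE) (edgeR adjusted p = 0.425), and none of its 31-base words was shared. ZNF22, a short protein with 5 fingers at chr10:45000475-45005326 on the plus strand, stood at 126, 194, 163 and 240 CPM for bone marrow, 267, 307, 346 and 334 CPM for lung and 243 CPM for the primary tumour. The primary library fell in the gap between the sites. The log2 fold change was -0.79 ± 0.23 (SE) (edgeR adjusted p = 0.392). Exons of ZNF22 overlap those of C10orf25 and CEP164P1 on the opposite strand.

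ZNF808, a KRAB gene with 23 fingers, lay at 0.417 to 1.17 CPM for bone marrow, 2.25 to 13.6 CPM for lung and 1.84 CPM for the primary tumour, and shared 35.6% of its 31-base words. ZNF71 lay at 1.11 to 1.63 CPM for bone marrow and 1.78 to 7.53 CPM for lung. ZNF793 lay at 8.15 to 13.7 and 14.3 to 27.4 CPM, and ZNF737 at 8.34 to 9.16 and 11.9 to 15.3 CPM. The gaps between the sites were small for ZNF71 and ZNF793. The edgeR adjusted p values of these 4 genes were 0.354, 0.475, 0.490 and 0.620. Words shared with other genes made up 25.6% for ZNF737, 8.92% for ZNF793 and 0.86% for ZNF71. On the same strand, exons of ZNF808 overlap those of ZNF701, and exons of ZNF737 those of another gene.

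**Figure D3:**
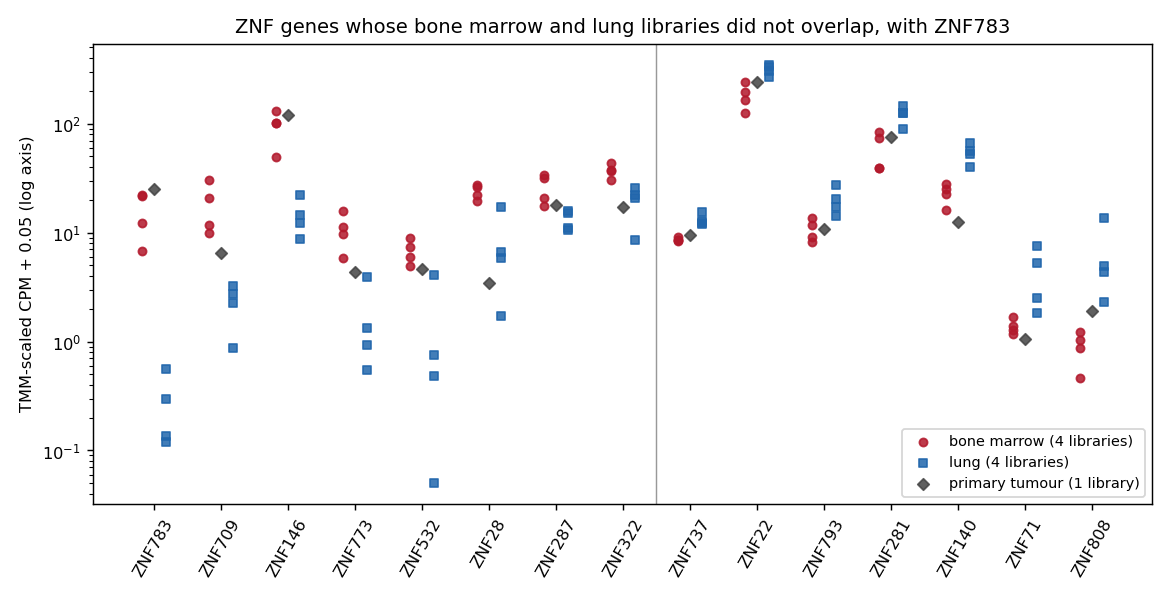
TMM-scaled CPM plus 0.05 on a log axis for ZNF783 and the 14 ZNF genes whose 4 bone marrow and 4 lung libraries did not overlap, with 1 point per library and the primary library beside them. Genes left of the line were higher in bone marrow and genes right of it higher in lung, and the gap is widest for ZNF783.

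Other genes with a small unadjusted p overlapped between the sites. ZNF638, a nuclear protein that binds DNA and RNA, stood at 21.9, 60.5, 54.8 and 84.2 CPM for bone marrow, 21.5, 24.2, 27.9 and 30.4 CPM for lung and 112 CPM for the primary tumour. Only bone marrow replicate 1 lay inside the lung range. ZNF394, with a SCAN domain, ran from 9.83 to 58.2 CPM for bone marrow and from 0.848 to 9.85 CPM for lung. ZNF623 ran from 1.76 to 2.85 CPM for bone marrow and from 0.848 to 50.8 CPM for lung, where replicate 3 was highest. Their edgeR adjusted p values were 0.475, 0.475 and 0.464.

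No gene of the lists by known role passed the edgeR test. Of 11 tested ZNF genes of RNA, ribosome and spindle functions (10 well detected), 8 were higher in bone marrow (median log2 fold change 0.21). Of 17 promoter-binding factors without a KRAB box (14 well detected), 6 were higher in bone marrow, and the median was -0.34. Of 15 genes with a SCAN domain (8 well detected), 8 were higher in bone marrow, and the median was 0.45. Of 8 KRAB genes known to bind retroelements (3 well detected), 3 were higher in bone marrow, and the median was -0.12. At an unadjusted p below 0.05 these lists held 1, 2, 1 and 0 genes (9.09, 11.8, 6.67 and 0%, beside 10.2% of all genes), and DESeq2 called 0 in each, beside 3.37% of all genes. ZNF91, which represses SVA elements, was at 0.310 ± 0.145 CPM for bone marrow and 0.741 ± 0.196 CPM for lung (edgeR adjusted p = 0.543). ZNF331, an imprinted gene, was at 9.38 ± 10.2 CPM for bone marrow and 25.0 ± 17.0 CPM for lung (edgeR adjusted p = 0.620).

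The partners of KRAB proteins were measured as well, 22 genes of which 14 were higher in bone marrow (median log2 fold change 0.21). TRIM28 was at 23.4 ± 8.79 CPM for bone marrow, 13.3 ± 4.51 CPM for lung and 24.9 CPM for the primary tumour (edgeR adjusted p = 0.546). CBX1 (HP1 beta) was at 282 ± 113 and 141 ± 51.1 CPM (edgeR adjusted p = 0.475), while EHMT1, a histone methyltransferase, was at 4.91 ± 3.63 and 16.7 ± 13.4 CPM (edgeR adjusted p = 0.485). CBX1 and EHMT1 were the 2 partners with an unadjusted p below 0.05 (9.09%, beside 10.2% of all genes). SETDB1 was at 9.05 ± 6.11 and 12.5 ± 15.3 CPM (edgeR adjusted p = 0.946). The HUSH complex and its partners had 4 tested genes, 2 of them higher in bone marrow. Of the other zinc finger families, 39 ZBTB, 16 ZSCAN, 7 ZKSCAN, 18 ZFP and 15 KLF genes were tested and 0 passed in edgeR, while DESeq2 called 1 ZBTB and 3 KLF genes, beside 3.37% of all genes. At an unadjusted p below 0.05, 3 ZBTB, 1 ZKSCAN and 3 KLF genes had more in bone marrow, and 1 ZBTB, 1 ZFP and 3 KLF genes had more in lung. In either direction that was 10.3% of the ZBTB, 14.3% of the ZKSCAN, 5.56% of the ZFP, 40.0% of the KLF and 0% of the ZSCAN genes, beside 10.2% of all genes. Of the 221 ZNF rows under the count rule 178 were tested and 0 passed in edgeR, while DESeq2 called 8, beside 3.37% of all genes. An unadjusted p below 0.05 was found for 25 with more in bone marrow (14.04%, beside 6.33% of all genes) and 8 with more in lung (4.49%, beside 3.88%). A gene near 0 at a whole site falls under the rule and can pass the filter through its other libraries. The selection itself thus favours site differences, so these shares are a description only. ZNF783 is among the 178 rows.

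The primary tumour had 1 library, so its comparisons have no replicate check and assume that it varies as the other 8 libraries do. In edgeR 0 of 255 genes were called, as were 0% of all genes, and 9 had an unadjusted p below 0.05 (3.53%, beside 4.79% of all genes). DESeq2 called 0 of 253, beside 0.692% of all genes, and limma voom 0 of 255, beside 0.281%. By site, DESeq2 called 0 of 253 for bone marrow over primary, beside 0.501% of all genes, and 2 for lung over primary (0.791%, beside 1.08%), ZNF140 higher in lung and ZNF146 lower. The call of ZNF146 rests on lung values that its choice also used, so it is a description only. In edgeR neither site gave a call against the primary library, and an unadjusted p below 0.05 was found for 6 genes with bone marrow (2.35%, beside 3.81% of all genes) and 13 with lung (5.1%, beside 6.44%). The median log2 fold change of metastases over primary was 0.05, beside 0.17 for all genes, and 132 genes were above 0 (51.8%, beside 57.5% of all genes). The primary library was above all 8 others for 22 genes (8.63%, beside 10.1% of all genes) and below all 8 for 21 (8.24%, beside 7.57%).

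Among the genes above, ZNF592 was at 9.21 CPM for the primary tumour and at 0.366 to 2.40 CPM in the metastasis libraries. ZNF121 was at 178 CPM against 15.2 to 124 CPM, and ZNF638 at 112 CPM against 21.5 to 84.2 CPM. ZNF487, ZNF48 and ZNF587 were at 8.98, 17.7 and 20.9 CPM. Among the genes below, ZNF747 was at 0.460 CPM against 1.02 to 20.6 CPM, ZNF81 at 1.30 against 3.92 to 26.3 CPM and ZNF566 at 5.37 against 11.7 to 46.6 CPM. ZNF567, ZNF44 and ZNF99 were at 0.997, 0.767 and 0.384 CPM. The primary values of ZNF747, ZNF44 and ZNF99 rest on 5.56, 9.61 and 5.06 estimated counts. ZNF747, ZNF587 and ZNF99 shared 38.6, 31.7 and 13.9% of their 31-base words with other genes. Exons of ZNF747 and ZNF587 also overlap those of other genes on the same strand. Over the whole lists, a KRAB-like box was carried by 12 of the 22 genes above and 17 of the 21 genes below, beside 139 of the family's 254 genes with a coding sequence.

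Within the 8 metastasis libraries, single genes varied widely. The median coefficient of variation (SD over mean of CPM) was 0.642, beside 0.693 for all genes tested, and it was 0.527 within bone marrow and 0.599 within lung. ZNF536 varied least, at 9.84, 10.5, 9.24 and 8.41 CPM for bone marrow, 9.16, 10.2, 10.3 and 10.03 CPM for lung and 7.36 CPM for the primary tumour. ZNF688, ZNF492, ZNF462 and ZNF470 followed. The genes that varied most were ZNF623, ZNF160, ZNF501, ZNF419 and ZNF345, and ZNF501 ran from 0.0828 CPM for lung replicate 3 to 52.8 CPM for bone marrow replicate 2.

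The spread was set against that of counting alone, a measure chosen after the values had been seen. The median gene varied 8.11 times as much as counting alone would give, beside 8.78 times for all genes examined. It was under 1.5 times for 8 genes (3.14%, beside 3.04% of 13917 genes), which were ZNF492, ZNF175, ZNF536, ZNF667, ZNF90, ZNF558, ZNF462 and ZNF681. These 8 had a median level of 1.52 CPM, beside 10.5 CPM for the rest. Lung replicate 3 had the lowest median level over the family, 5.88 CPM. There, 36 genes were more than 5 times below the median of the other 7 libraries, more than in any other library. The share over all genes was not counted, so the 36 cannot be read as a trait of the family.

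**Figure D4:**
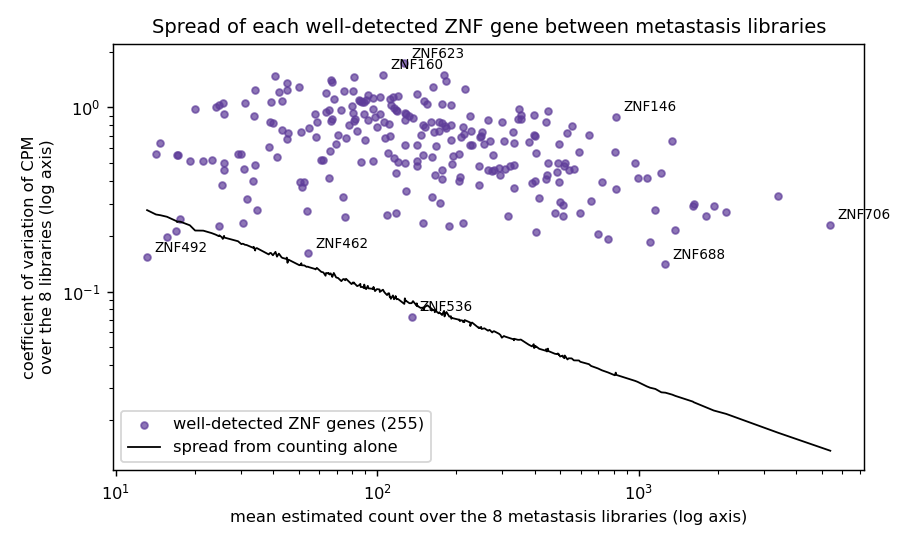
Coefficient of variation of CPM over the 8 metastasis libraries against the mean estimated count, both on log axes, for the 255 well-detected ZNF genes (points), with the spread that counting alone gives (line). Most points lie far above the line, with a median ratio of 8.11, and ZNF536 lies just under it.

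The start sites were searched for letters bound by known factors, in the 250 bases before each RefSeq start (GRCh38.p14) on both strands. In a check of 2000 tested genes, 76.75% had the first 30 bases after this start inside a GENCODE 29 transcript of the same gene. The 5 motifs were chosen after the expression values had been seen, and a match is a description, not a binding site. The table of promoters held 224 of the 255 genes. The ETS core CCGGAAG was present in 80 of them (35.7%), beside 14.4% of 10508 other tested protein-coding genes, 24.3% of 181 ZNF rows under the count rule and 8.82% of all 27305 promoters. It was found in 51 of 127 genes with a KRAB-like box (40.2%) and 29 of 95 without (30.5%), in 35.5% of the genes on chromosome 19 and in 35.9% of the others. The median GC content of the windows was 60.8%, beside 64.4% for the other tested protein-coding genes, and its part in the difference was not tested. Genes of 1 family can share promoter sequence by descent, so they are not independent observations.

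The matches were close to the start. Of 89 matches, 69 began within 100 bases and 55 (61.8%) within 50 bases of it, beside 41.9% within 50 bases for the 1796 matches of the other tested protein-coding genes, and 9 genes held 2 or more. Promoters of 3 genes are shown because they hold the letters near the start. They are the 120 bases before the RefSeq start, on the plus strand, at chr19:57499818-57499937, chr14:73886739-73886858 and chr19:21141920-21142039, with the core in capitals, also where it reads CTTCCGG on this strand.
ZNF773: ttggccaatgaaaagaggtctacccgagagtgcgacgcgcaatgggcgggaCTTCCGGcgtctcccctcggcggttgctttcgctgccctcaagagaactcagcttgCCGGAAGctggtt
ZNF410: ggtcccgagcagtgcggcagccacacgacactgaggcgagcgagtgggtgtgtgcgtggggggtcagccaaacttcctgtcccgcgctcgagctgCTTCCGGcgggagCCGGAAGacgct
ZNF431: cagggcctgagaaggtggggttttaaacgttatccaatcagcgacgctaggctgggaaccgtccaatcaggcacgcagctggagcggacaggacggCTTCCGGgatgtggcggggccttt
ZNF773 and ZNF410 hold 2 cores each and ZNF431 holds 1.

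The other motifs were searched in the same windows. CCAAT stood in 104 genes (46.4%, beside 34.9% of the other tested protein-coding genes), and the letters of a ZNF143 motif stood in 4 (1.79%, beside 0.485%). Letters of an NRF1 motif stood in 6 (2.68%) and the pair GGAAGGAA in 8 (3.57%), beside 1.83% and 2.97% of tested genes of any type. ZNF140 is shown for the ZNF143 letters (capitals, on the minus strand) and ZNF146 and ZNF783 because their site values are given above, at chr12:133080803-133080922, chr19:36214986-36215105 and chr7:149262076-149262195, all on the plus strand.
ZNF140: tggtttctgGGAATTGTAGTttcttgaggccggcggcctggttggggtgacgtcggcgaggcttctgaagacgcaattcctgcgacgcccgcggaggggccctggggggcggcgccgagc
ZNF146: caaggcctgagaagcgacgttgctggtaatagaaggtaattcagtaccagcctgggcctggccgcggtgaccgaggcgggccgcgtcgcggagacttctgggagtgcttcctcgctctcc
ZNF783: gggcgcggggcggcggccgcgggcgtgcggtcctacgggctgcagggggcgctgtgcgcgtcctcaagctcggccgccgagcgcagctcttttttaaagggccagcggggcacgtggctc
The ETS core and ZNF143 letters were not in the windows of ZNF146 and ZNF783.

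The ETS core letters were set beside the site values. The median log2 fold change of bone marrow over lung was -0.08 over the 80 genes with the letters and -0.12 over the 144 without. Sites did not overlap for 2 of the former (2.5%) and 11 of the latter (7.64%), beside 5.87% of all genes. For metastases over primary the medians were -0.08 with the letters and 0.15 without. None of these differences was tested. The median level was 8.68 CPM with the letters and 10.5 CPM without.

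**Figure D5:**
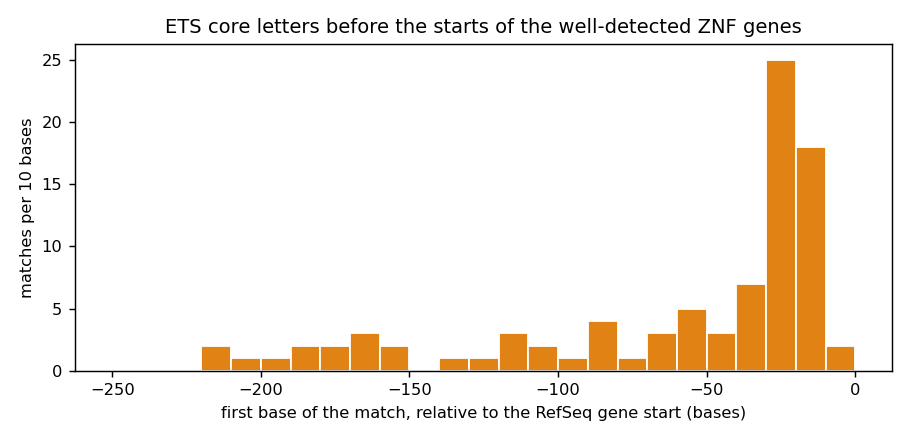
Number of ETS core matches per 10 bases against the position of the first base relative to the RefSeq gene start, over the 224 well-detected ZNF genes with a promoter sequence. Of 89 matches, 55 lie within 50 bases of the start.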

How the data were processed

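RNA was measured in 4 bone marrow, 4 lung and 1 primary tumour library prepared by template switching from low RNA input, per the labels' protocols. The authors deposited estimated counts (expected counts) per gene symbol, unscaled for depth, and the submitters' processing notes name Trim Galore, Salmon and hg38 without versions. A second deposited table gives the percent of reads by species, reads by counting category as a fraction, and a read length of 151. The sources used here do not say how the authors made them.

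Expected counts were rounded, 12 vector rows were left out, and genes were filtered with filterByExpr. With TMM scaling, edgeR 4.0.16 fitted 1 quasi-likelihood model of 3 groups to the 9 libraries (R 4.3.3, common biological coefficient of variation 0.925), with two-sided tests adjusted by Benjamini-Hochberg over 17073 genes. The model was checked on simulated counts, with a pass required only at a spread well below that of these data. That pass does not show how often the test finds a true change at the measured spread. Fold changes are bone marrow over lung, or metastases over primary, on the log2 scale. Alternatives were DESeq2 1.42.0, limma 3.58.1 voom with quality weights, other scalings (median ratio, or total count only), other filters (none, or at least 5 CPM in at least 4 libraries), a block for the replicate number, a fit without the primary library, each metastasis library left out, and other thresholds for the ZNF rule. No pair of the 9 libraries agreed within sampling noise.

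The ZNF genes, the role lists and the tests were chosen with earlier results of these data known. Named genes were ZNF146 and ZNF783, the 12 highest per transcript length, those without overlap between sites, the 5 smallest p in each direction, up to 6 above and 6 below all metastasis libraries in the primary library, the 5 least and 5 most variable, the 3 on each side of the threshold and role list genes. POLR2I, ZFP14, TBCB, CAPNS1 and EZH2 were named after their values were seen, and so were the length used for levels per kilobase, the neighbour window, the promoter letters and the counting comparison chosen. Positions and lengths are from GENCODE 29 and promoters from RefSeq GRCh38.p14. The principal transcript is the best APPRIS rank, then the longest. Protein features came from translated GENCODE 29 coding sequences, in place of the planned RefSeq protein table, which was not used here. A finger was C, 2 to 4 residues, C, 12 residues, H, 3 to 5 residues, H.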

Additional observations from a re-analysis of the deposited data

Results flagged for a closer look

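Each group of 4 libraries was examined for a library far from the other 3, by the gap to its nearest neighbour over the whole range, for the named ZNF genes. Of 106 such groups 6 had one. Chance gives about 1 in 20, but 5 of the 6 are in genes named for a small or large spread, to which that rate does not apply. ZNF160 was at 31.56 CPM for bone marrow replicate 2, with the others at 2.44 to 6.81 CPM, and at 8.229 CPM for lung replicate 1, with the others at 0 to 1.20 CPM. ZNF462 was at 4.954 CPM for bone marrow replicate 4, with the others at 3.34 to 3.55 CPM, and at 3.095 CPM for lung replicate 2, with the others at 4.14 to 4.33 CPM. ZNF345 was at 4.379 CPM for bone marrow replicate 3, with the others at 1.92 to 2.20 CPM. ZNF669, just outside the count rule, was at 1.407 CPM for lung replicate 3, with the others at 0.679 to 0.799 CPM. No cause was tested for these values.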

How the results depend on the processing

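In edgeR 1 gene of all genes was called between the sites; this count was 3 with at least 5 CPM in at least 4 libraries, 468 with DESeq2, 6 with limma voom, 0 with the replicate number as a block and 0 to 0 with single libraries left out. For metastases over primary it was 0, against 96 with DESeq2 and 48 with limma voom. Called ZNF genes between the sites went from 0 to 5 with DESeq2, and single libraries left out gave 0 to 0. The family's median log2 fold change of metastases over primary was -0.26 with limma voom, where all genes had -0.10; the 0.05 reported also turned sign with library size alone (-0.04) and ran from -0.05 to 0.03 with single libraries left out. Genes without overlap between sites numbered 19 to 33 when single libraries were left out, a count that rises with fewer libraries. Without bone marrow replicates 1 to 4 it was 33, 19, 20 and 22 (beside 13.6, 8.82, 7.83 and 8.54% of all genes), and without lung replicates 1 to 4 it was 27, 25, 24 and 22 (beside 9.96, 10, 8.47 and 9.11%); the members' shares were 7.45 to 12.9%. Under a rule of at least 10 counts in all 9 libraries the family's share of counts was 0.443% in bone marrow, 0.492% in lung and 0.516% in the primary library. Same-numbered libraries of the sites had correlations of -0.00202, 0.0261, -0.0349 and -0.0363, taken over deviations from the site means. Such values cannot show whether these libraries share a mouse, since a shared mouse need not leave a shared signal. The block changed no ZNF call. The 12 genes ranked highest per length shared 8 between the 2 length choices. Where other causes of these moves were possible, the cause was not tested. Low counts limit genes near 10 counts most.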
